A study of Mus musculus with 6 samples.

Results

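The atrophy ubiquitin ligases are 10 genes, *Fbxo32*, *Trim63*, *Trim54*, *Trim55*, *Fbxo30*, *Fbxo31*, *Fbxo40*, *Asb2*, *Nedd4* and *Traf6*, chosen by symbol because they encode ubiquitin ligases linked to muscle mass. All 10 were found among the 41709 genes of the expression table. They were measured by RNA-seq in 6 tibialis anterior (TA) muscles of male C57BL/6J mice, 3 electroporated with a plasmid for wild-type Lrpprc (LrpprcWT, the control) and 3 with a plasmid for LrpprcP27A, in which alanine replaces proline 27, the residue whose dihydroxylation the study followed. Both plasmids drive a Flag-tagged mouse Lrpprc from a CMV promoter in whichever cells took up DNA, both groups had the same hyaluronidase injection and electric pulses, and the mouse gene was left intact. The muscles were taken 14 days later, and the 2 muscles of a mouse received different plasmids. The study used young and old mice, and the age of the mice behind these 6 libraries is not given in the sources used here. No library of a muscle without a Lrpprc plasmid was analysed here, so the comparison is between the variant and overexpressed wild-type Lrpprc.

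Ubiquitin ligases select the proteins that receive ubiquitin, and chains of ubiquitin then send many of these proteins to the proteasome. In skeletal muscle, *Fbxo32* (atrogin-1) and *Trim63* (MuRF1) are the classical atrogenes, whose mRNAs rise together in fasting, denervation, glucocorticoid excess and cachexia, largely through FoxO transcription factors. The F-box proteins Fbxo32, Fbxo30, Fbxo31 and Fbxo40 bring substrates to a cullin-1 complex, Asb2 does so for a cullin-5 complex, the MuRF proteins Trim63, Trim54 and Trim55 are RING ligases of the sarcomere and its microtubules, Nedd4 is a HECT ligase, and Traf6 is a RING ligase that builds signalling chains.

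TPM values (length-scaled transcript abundances) divide each gene's reads by its length and set every library to the same total, so that levels of different genes can be compared. The values keep no read depth, and no counting error can be given. The samples of a group are separate muscles. On the first principal component of log2(TPM + 1), the LrpprcWT library of replicate 2 stood apart at -0.80, between the other LrpprcWT libraries at -42.4 and -41.6 and the LrpprcP27A libraries, which reached 38.9. *Lrpprc* itself, whose plasmid and mouse transcripts the table does not separate, had 35.1, 37.0 and 75.2 TPM in the LrpprcWT libraries and between 26.0 and 29.7 TPM in the LrpprcP27A libraries. Most genes were lower with LrpprcP27A. Among the 11611 genes with a mean of at least 1 TPM, 88.0% had a log2 fold change below 0, with a median of -0.32.

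The promoters of *Fbxo32*, *Asb2* and *Trim63* are shown because the mRNAs of the first 2 differed most between the groups and that of *Trim63*, the usual partner of *Fbxo32*, gave no call. Each is the 250 bases before the start of the gene's canonical GENCODE transcript, read from GRCm39 on the gene's strand. Capitals mark a forkhead motif (TGTTTAC), an E-box (CANNTG, the site of MyoD and myogenin) or a glucocorticoid response element (inverted TGTNC half-sites 3 bases apart), searched on both strands. No marked motif overlaps another. The motifs were picked with these data known, and the form of the last was relaxed after a stricter one had found no match in the *Trim63* window.
Fbxo32, chr15:58078742-58078991, minus strand: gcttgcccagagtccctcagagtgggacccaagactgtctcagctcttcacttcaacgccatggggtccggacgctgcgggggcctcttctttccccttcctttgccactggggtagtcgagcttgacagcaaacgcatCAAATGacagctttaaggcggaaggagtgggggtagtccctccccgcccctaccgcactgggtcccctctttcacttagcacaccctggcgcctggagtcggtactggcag
Asb2, chr12:103322485-103322734, minus strand: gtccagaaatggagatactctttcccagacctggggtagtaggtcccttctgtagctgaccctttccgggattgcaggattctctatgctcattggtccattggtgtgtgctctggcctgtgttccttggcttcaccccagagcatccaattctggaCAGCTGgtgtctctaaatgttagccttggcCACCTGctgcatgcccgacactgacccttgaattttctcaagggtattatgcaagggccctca
Trim63, chr4:134042143-134042392, plus strand: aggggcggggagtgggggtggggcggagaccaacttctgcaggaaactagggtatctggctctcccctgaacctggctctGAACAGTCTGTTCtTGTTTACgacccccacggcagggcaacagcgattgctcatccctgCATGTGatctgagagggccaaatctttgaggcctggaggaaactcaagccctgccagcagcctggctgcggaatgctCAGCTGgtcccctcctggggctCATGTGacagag
The *Trim63* window held a forkhead motif that began 156 bases before the start, and next to it a glucocorticoid response element. No other member had either motif in this window, and of 21751 promoters of protein-coding genes 2.72% held the first and 0.299% the second. An E-box lay in 9 of the 10 members, all but *Nedd4*, against 64.8% of all promoters. The *Asb2* window belongs to the canonical transcript, which begins inside the annotated gene, and other *Asb2* transcripts begin elsewhere.

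The 10 genes did not move as 1 group. With LrpprcP27A, *Asb2*, *Fbxo32*, *Fbxo31* and *Trim54* were higher and *Trim55* was lower (limma, Benjamini-Hochberg adjusted p under 0.05), and *Trim63*, *Fbxo40*, *Traf6*, *Nedd4* and *Fbxo30* did not pass the test. The 4 higher calls stand against a background of 1.34% of all tested genes called higher, and the 1 lower call against 23.3% called lower. The members were chosen with earlier results of these data known, and the study had already reported *Fbxo32* as higher. Such shares therefore describe the members and do not test them as a group. Without counting calls, 5 members had every LrpprcP27A library above every LrpprcWT library, against 3.51% of all tested genes, and 2 had every LrpprcP27A library below, against 47.6%. The median log2 fold change of the 10 members was 0.040, compared with -0.32 over all tested genes. Treating the same-numbered muscles as pairs (the replicate block) gave 4 higher and 3 lower members, the added ones being *Nedd4* and *Fbxo30*, with backgrounds of 2.69% and 48.4%. The calls depended on single libraries. The number of higher members was 0 without the LrpprcWT library of replicate 3, 1 (*Asb2*) without the LrpprcWT library of replicate 1 or the LrpprcP27A library of replicate 2 or 3, and 4 without either of the other two, and the 5 called directions were kept in each of these fits. Over all 11611 tested genes, 3 were higher in the fit with 0 higher members. The fits with 1 higher member had 26, 34 and 28, and those with 4 had 304 and 147. The number of lower members was 3 without the LrpprcWT library of replicate 2, where 6913 of all tested genes were lower. It was 0 without any of the others, where 15 to 1688 of all tested genes were lower.

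**Figure D1:**
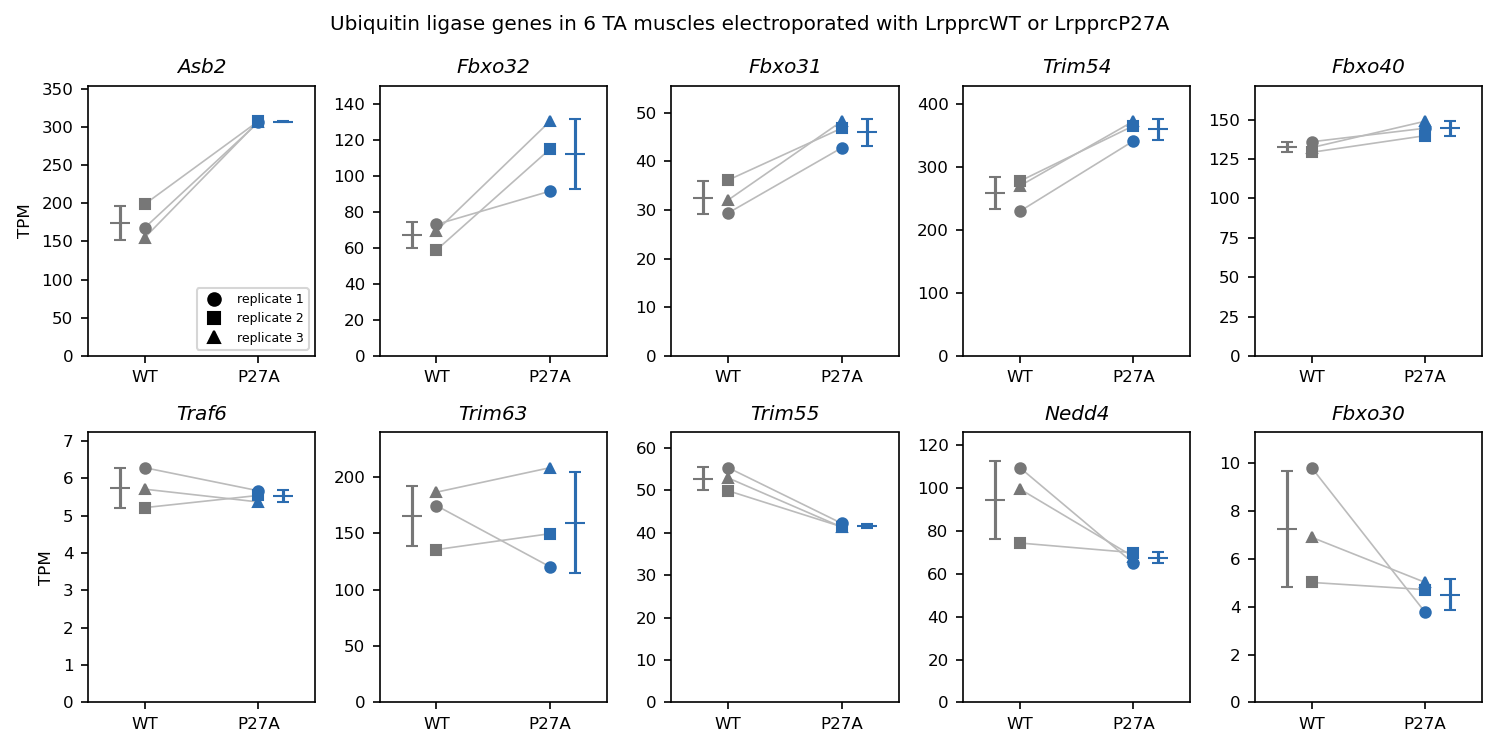
TPM (vertical axes, from 0) of the 10 ubiquitin ligase genes in the 3 LrpprcWT (WT, grey) and 3 LrpprcP27A (P27A, blue) muscles, ordered by log2 fold change; lines join muscles with the same replicate number, and bars give the mean and SD. The LrpprcP27A libraries of Asb2 sit together near 307 TPM above all LrpprcWT libraries, while those of Trim63 spread from 120.3 to 208.1 TPM across the LrpprcWT range.

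*Asb2* (chromosome 12 of GRCm39, 103283687 to 103334012), the substrate receptor of a cullin-5 ligase and a negative regulator of muscle mass, had the largest log2 fold change of the 10. It had 167.8, 198.7 and 154.9 TPM in the LrpprcWT libraries of replicates 1 to 3 and 305.8, 307.4 and 307.0 TPM in the LrpprcP27A libraries. The LrpprcP27A muscles were all higher and nearly identical, with an SD of 0.818 TPM against 22.5 TPM with LrpprcWT (n = 3 each). Its log2 fold change was 0.82 (limma, SE 0.11, adjusted p = 0.0111), a 1.76-fold difference of the means, and 99.6% of all tested genes had a smaller one. The adjusted p was 0.0613 without the LrpprcWT library of replicate 3.

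*Fbxo32* (chromosome 15, 58039275 to 58078741), which encodes the F-box protein atrogin-1, had 73.0, 58.8 and 69.5 TPM with LrpprcWT and 91.5, 115.0 and 130.4 TPM with LrpprcP27A. The groups did not overlap, and the increase differed between pairs. On the log2(TPM + 1) scale it was 0.32 in replicate 1, 0.96 in replicate 2 and 0.90 in replicate 3, with a fitted log2 fold change of 0.72 (limma, SE 0.15, adjusted p = 0.0202). The adjusted p from limma was 0.0509 without the LrpprcWT library of replicate 1, 0.0948 without that of replicate 3, and 0.0580 and 0.0665 without the LrpprcP27A libraries of replicates 2 and 3.

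*Trim63* (chromosome 4, 134042393 to 134056948) encodes MuRF1, a ligase for thick filament proteins. It had 174.5, 135.5 and 186.4 TPM with LrpprcWT and 120.3, 149.6 and 208.1 TPM with LrpprcP27A. The LrpprcWT range lay inside the LrpprcP27A range, and the pairs went both ways, down in replicate 1 and up in replicates 2 and 3. Limma gave a log2 fold change of -0.078, with a 95% interval from -0.54 to 0.38 (limma adjusted p = 0.760), which leaves room for changes in either direction. Under 3 of 4 other scalings its sign turned, with 0.11 to 0.30, and none of these passed the test.

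The ratio of *Fbxo32* to *Trim63* within a library does not change when all its values are multiplied by a factor. It was 0.419, 0.434 and 0.373 in the LrpprcWT libraries and 0.761, 0.768 and 0.626 in the LrpprcP27A libraries. Every LrpprcP27A muscle therefore carried more *Fbxo32* per *Trim63* than every LrpprcWT muscle. The mean log2 ratio was higher by 0.81, or 1.76-fold, and a two-sided exact permutation test over the 6 libraries gave p = 0.1, below which groups of 3 cannot go. Leaving out any 1 library gave differences of the log2 ratio from 0.75 to 0.91. *Fbxo32* and *Trim63* were both lowest in the LrpprcWT group in replicate 2, and both highest in the LrpprcP27A group in replicate 3.

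*Trim54* (chromosome 5, 31273911 to 31298846), which encodes MuRF3, a microtubule-binding ligase, was the most abundant of the 10 in both groups. It had 229.8, 277.6 and 270.1 TPM with LrpprcWT and 341.5, 365.5 and 372.7 TPM with LrpprcP27A, with no overlap. Limma gave a log2 fold change of 0.48 (SE 0.11, adjusted p = 0.0242). *Trim54* overlaps genes on the other strand, of which *Mpv17* had the highest level, between 11.3 and 22.6 TPM, and the library kit does not mark strand.

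*Trim55* (chromosome 3, 19698571 to 19746771), which encodes MuRF2, was the 1 member called lower. It had 55.3, 49.9 and 52.9 TPM with LrpprcWT and 42.2, 41.4 and 41.3 TPM with LrpprcP27A. The groups did not overlap and the spread within LrpprcP27A was small (SD 0.488 TPM, n = 3). Limma gave a log2 fold change of -0.33 (SE 0.10, adjusted p = 0.0441), which lies at the median of all tested genes, and the call was lost in every fit that left out a library other than the LrpprcWT library of replicate 2 (adjusted p from 0.104 to 0.170).

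Within the 3 MuRF genes, the mix of transcripts also differed. *Trim55* made up 12.0%, 10.8% and 10.4% of their summed TPM in the LrpprcWT libraries and 8.37%, 7.43% and 6.64% in the LrpprcP27A libraries, with no overlap (two-sided exact permutation p = 0.1, again the lowest that can be reached). *Trim54* made up 54.3% ± 5.11 with LrpprcWT and 64.4% ± 4.07 with LrpprcP27A, and *Trim63* 34.6% ± 4.68 and 28.1% ± 4.90 (SD, n = 3). Both shares overlapped between the groups (two-sided exact permutation p = 0.2 for each), and leaving out either the LrpprcWT library of replicate 2 or the LrpprcP27A library of replicate 3 removed the overlap. Within pairs, the *Trim54* share was higher and the *Trim63* share lower with LrpprcP27A in 3 of 3 (exact sign permutation p = 0.25, the smallest that 3 pairs allow).

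**Figure D2:**
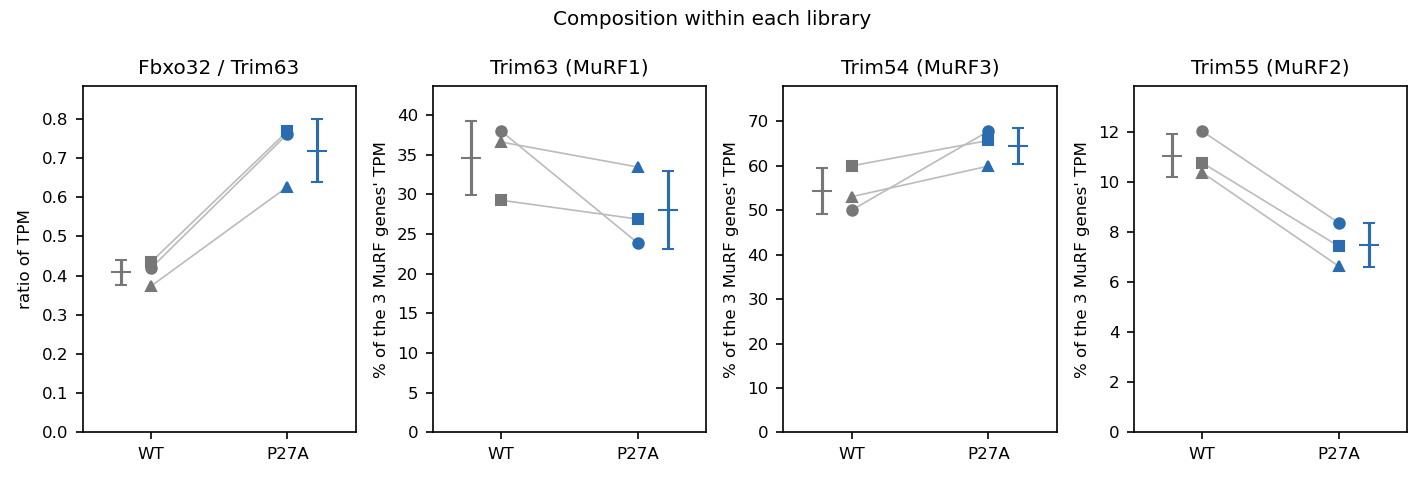
Ratio of Fbxo32 to Trim63 TPM and percent of the summed TPM of the 3 MuRF genes taken by each, per library (WT grey, P27A blue; lines join the same replicate number, bars give the mean and SD; vertical axes start at 0). The ratio is higher and the Trim55 share lower in every LrpprcP27A library, and the other two shares overlap.

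*Fbxo31* (chromosome 8, 122276177 to 122305642) encodes an F-box protein known for the turnover of cyclin D1. It had 29.4, 36.1 and 32.0 TPM with LrpprcWT and 42.8, 46.8 and 48.2 TPM with LrpprcP27A. All LrpprcP27A muscles were higher, with a log2 fold change of 0.49 (limma, SE 0.12, adjusted p = 0.0267). *Fbxo31* and *Trim54* lost their calls without the same libraries as *Fbxo32*, with adjusted p up to 0.105 and 0.0905.

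*Fbxo40* (chromosome 16, 36783822 to 36810902), a muscle F-box gene whose product targets the insulin receptor substrate Irs1, had the smallest coefficient of variation of the 10 within the LrpprcWT group (2.52%). It had 136.0, 129.3 and 132.3 TPM with LrpprcWT and 144.6, 139.9 and 149.1 TPM with LrpprcP27A. The groups did not overlap, but the log2 fold change of 0.12 had a 95% interval from -0.085 to 0.33 and did not pass the test (limma adjusted p = 0.293). Median-of-ratios scaling gave 0.50 (limma adjusted p = 0.0343).

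*Fbxo30* (chromosome 10, 11156770 to 11173806), which encodes MUSA1, an F-box protein induced in denervated muscle, was among the 2 members with low levels. It had 9.82, 5.02 and 6.91 TPM with LrpprcWT and 3.77, 4.72 and 5.02 TPM with LrpprcP27A, so that the groups met at 5.02 TPM. Limma gave a log2 fold change of -0.55, with a 95% interval from -1.04 to -0.060 (limma adjusted p = 0.0822, or 0.0119 when paired). With median-of-ratios scaling it was -0.23 (limma adjusted p = 0.373, or 0.382 when paired), and without the LrpprcWT library of replicate 1 it was -0.33 (limma adjusted p = 0.242).

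*Nedd4* (chromosome 9, 72569596 to 72657134), a HECT ligase expressed in many cell types, had 109.5, 74.3 and 99.5 TPM with LrpprcWT and 64.9, 69.8 and 68.0 TPM with LrpprcP27A. The groups did not overlap, and the LrpprcWT library of replicate 2 lay close to the LrpprcP27A libraries. Limma gave a log2 fold change of -0.46 (SE 0.15, adjusted p = 0.0504, or 0.00861 when paired). With median-of-ratios scaling it was -0.088 (limma adjusted p = 0.539, or 0.515 when paired). Leaving out the LrpprcWT library of replicate 2 gave -0.62 (limma adjusted p = 0.00365), and leaving out any other library gave -0.34 to -0.48 with no call.

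*Traf6* (chromosome 2, 101508519 to 101533545), which builds ubiquitin chains in Toll-like and interleukin-1 receptor signalling, had 6.28, 5.22 and 5.71 TPM with LrpprcWT and 5.67, 5.54 and 5.37 TPM with LrpprcP27A. The groups overlapped. Its log2 fold change was -0.043, with a 95% interval from -0.34 to 0.25 (limma adjusted p = 0.793), and it was above 0 under 3 of 4 other scalings.

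In the LrpprcWT group the order of levels was *Trim54*, *Asb2*, *Trim63*, *Fbxo40*, *Nedd4*, *Fbxo32*, *Trim55*, *Fbxo31*, *Fbxo30* and *Traf6*, with means from 259.2 to 5.74 TPM. The ranges of *Asb2* and *Trim63*, of *Trim63* and *Fbxo40*, and of *Fbxo30* and *Traf6* overlapped. In the LrpprcP27A group *Asb2* and *Trim63* were apart, at 306.7 and 159.3 TPM, *Fbxo32* stood above *Nedd4*, *Fbxo31* above *Trim55* and *Traf6* above *Fbxo30* in 3 of 3 libraries, and of the neighbours only *Trim63* and *Fbxo40* overlapped. The summed level of the 10 genes was from 970.5 to 1010 TPM with LrpprcWT and from 1163 to 1335 TPM with LrpprcP27A. Of the 7 members whose groups did not overlap, the LrpprcWT library of replicate 2 was the nearest of its group to the LrpprcP27A libraries for 5, and the farthest for *Fbxo32* and *Fbxo40*.

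Because most genes were lower as deposited, each member was also compared under other scalings. Median-of-ratios scaling moved the median log2 fold change of all tested genes from -0.32 to -0.0047, and *Asb2*, *Fbxo32*, *Fbxo31* and *Trim54* then had 1.20, 1.10, 0.85 and 0.85 (limma adjusted p = 0.0243, 0.0198, 0.0323 and 0.0295), against 5.25% of all tested genes called higher. On that scale *Trim55* was at 0.036 and no member was called lower, against 6.03% of all tested genes, while *Fbxo40* joined the higher members. Mitochondrial genes took 36.0% to 45.2% of the TPM in the LrpprcWT libraries and 44.2% to 46.1% in the LrpprcP27A libraries. Rescaled over nuclear protein-coding genes, the same 4 members were called higher and 0 lower, against 1.91% and 5.46% of all tested genes. Relative to the median of all tested genes as deposited, *Asb2* was 1.14 and *Fbxo32* 1.04 above on the log2 scale, *Trim55* was 0.013 below, and *Nedd4* and *Fbxo30* were 0.14 and 0.23 below.

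**Figure D3:**
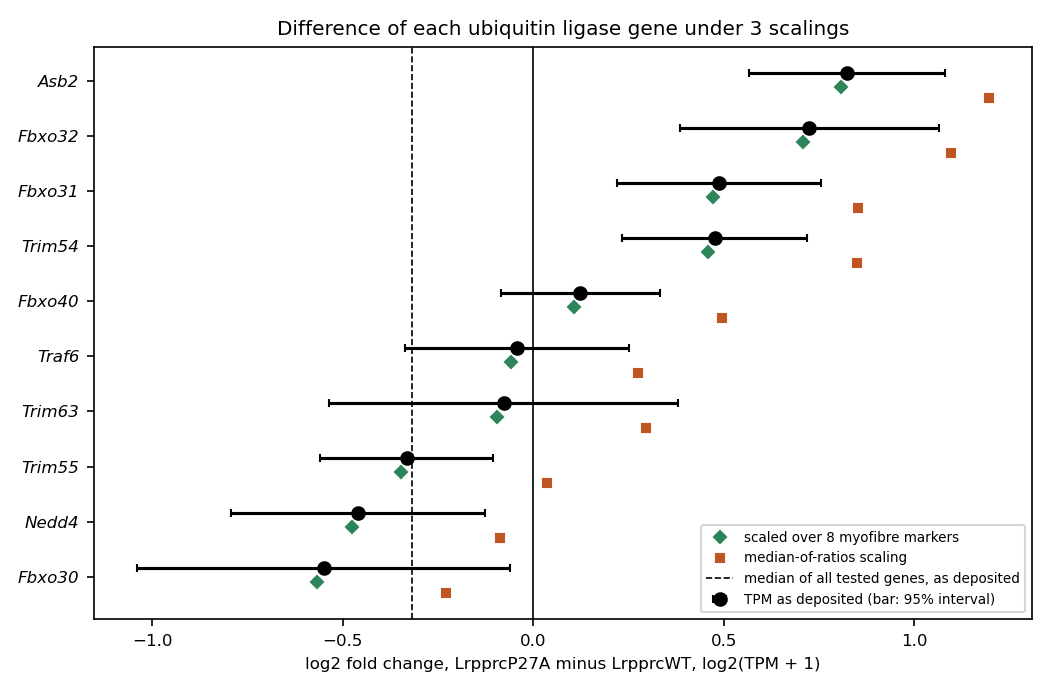
Log2 fold change (horizontal axis, LrpprcP27A minus LrpprcWT, log2(TPM + 1)) of the 10 genes as deposited (black, with 95% intervals), scaled over 8 myofibre markers (green) and with median-of-ratios scaling (orange). Asb2, Fbxo32, Fbxo31 and Trim54 lie above 0 under all 3, and Trim55 moves from -0.33 to 0.036 with median-of-ratios scaling.

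Markers of some other cell types differed between the groups. The background for these counts is 23.3% of all tested genes called lower, or 48.4% in the paired fit. The macrophage and leukocyte markers were lower in 7 of 7 tested genes, with a summed level of 81.4 to 178.4 TPM over the LrpprcWT libraries and 29.4 to 63.9 TPM over the LrpprcP27A libraries. The untested marker of that list, *Cd163*, a receptor of resident macrophages, had 0.315, 0.581 and 0.480 TPM with LrpprcWT and 1.08, 0.821 and 1.67 TPM with LrpprcP27A. The fibroblast markers were lower in 5 of 6 genes (1093 to 1618 TPM and 429.3 to 783.2 TPM), the satellite cell markers in 3 of 4 (16.4 to 20.1 TPM and 12.5 to 13.3 TPM), the endothelial markers in 1 of 5 (158.1 to 287.8 TPM and 117.5 to 163.2 TPM) and the Schwann cell markers in 0 of 3 tested (19.8 to 39.5 TPM and 17.7 to 36.0 TPM), and no marker was at 0 in all libraries. The untested Schwann cell marker, *S100b*, had 1.35, 1.57 and 0.919 TPM with LrpprcWT and 0.710, 0.721 and 0.583 TPM with LrpprcP27A, with no overlap. All 5 endothelial markers had log2 fold changes below 0, from -0.80 to -0.34, and the paired fit called 5 of 5 lower. With median-of-ratios scaling the median log2 fold changes were -0.69 for the macrophage, -0.71 for the fibroblast, -0.51 for the satellite cell, -0.17 for the endothelial and 0.011 for the Schwann cell markers. Then 2 of 7, 3 of 6, 2 of 4, 0 of 5 and 0 of 3 were called lower, in this order. The share of all tested genes called lower was then 6.03%. The 8 myofibre markers, which define the labelled tissue, summed to 104748 to 117154 TPM with LrpprcWT and 101955 to 115490 TPM with LrpprcP27A, and their median log2 fold change was -0.022. Single myofibre markers ranged from -0.38 to 0.42, with 1 called higher, *Actn3* (limma adjusted p = 0.0426), and 0 lower. The share of all tested genes called higher was 1.34%. The median log2 fold change of the ligase members was 0.040 as deposited. With median-of-ratios scaling it was 0.40, beside -0.0047 for all tested genes and 0.35 for the 8 myofibre markers. Scaled over these 8 markers, an alternative chosen after the data were seen, *Asb2*, *Fbxo32*, *Fbxo31* and *Trim54* had log2 fold changes of 0.81, 0.71, 0.47 and 0.46 (limma adjusted p = 0.0142, 0.0280, 0.0447 and 0.0314), against 0.904% of all tested genes called higher, and *Trim55* was not called at -0.35 (limma adjusted p = 0.102). The part of the other cell types in the lower levels of *Nedd4*, *Fbxo30* and *Trim55* was not tested. In whole muscle, fewer cells of a type and less RNA per cell cannot be told apart.

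The rest of the pathway was described by 6 lists with 94 tested genes in all. None of these genes was called higher and 15, or 16.0%, were called lower (limma, adjusted p under 0.05), against 1.34% and 23.3% of all tested genes. At an unadjusted p under 0.05, 2 of the 94 were higher, *Foxo4* and *Myh4*, against 301 of all 11611 tested genes. The paired fit called 1 higher and 36 lower, against 2.69% and 48.4% of all tested genes. Median-of-ratios scaling called 9 higher and 3 lower, against 5.25% and 6.03%, and of the 15 lower genes *Otud1*, *Uchl1* and *Myog* alone stayed called on that scale. The ubiquitin genes, E1 and E2 enzymes had 2 of 17 lower and a median log2 fold change of -0.21. They were *Rps27a*, a ubiquitin and ribosomal protein fusion gene, at -0.64, and *Ube2n*, the E2 enzyme that works with Traf6, at -0.58 (limma adjusted p = 0.0204 and 0.0174), and at -0.27 and -0.21 with median-of-ratios scaling (limma adjusted p = 0.117 and 0.106). *Ube2n* had 35.1, 30.8 and 36.5 TPM with LrpprcWT and between 22.4 and 22.6 TPM with LrpprcP27A.

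The cullin-RING partners that Fbxo and Asb receptors dock to had 1 of 10 lower and a median of -0.22. Over all tested genes 23.3% were lower and the median was -0.32. The 1 lower partner was *Nedd8*, the ubiquitin-like protein that activates cullins, at -0.51 (limma adjusted p = 0.0262), or -0.14 with median-of-ratios scaling (limma adjusted p = 0.309). The next by p was *Cand1*, a cullin exchange factor, at -0.55 (limma adjusted p = 0.0628, or 0.00277 when paired). *Cul1* and *Cul5* had log2 fold changes of -0.22 and -0.051 (limma adjusted p = 0.207 and 0.812). Other ligases and adaptors of muscle had 2 of 24 lower, against the same 23.3%. They were *Trim72*, the membrane repair protein MG53, at -0.71 and *Klhl40*, a stabilizer of thin filaments, at -0.61 (limma adjusted p = 0.0239 and 0.0266). Median-of-ratios scaling gave -0.34 and -0.23 (limma adjusted p = 0.0724 and 0.0998). *Klhl40* had 132.6, 92.3 and 129.5 TPM with LrpprcWT and between 75.6 and 77.5 TPM with LrpprcP27A.

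Among the deubiquitinases, which remove ubiquitin, 4 of 10 were lower, against 23.3% of all tested genes. Their median log2 fold change was -0.36, beside -0.32 over all tested genes. *Otud1* fell the most, with 80.4, 93.9 and 136.8 TPM with LrpprcWT and 21.1, 40.3 and 38.4 TPM with LrpprcP27A (log2 fold change -1.63, limma adjusted p = 0.0130). *Uchl1* had 10.5, 5.17 and 12.7 TPM with LrpprcWT and 3.66, 2.50 and 3.90 TPM with LrpprcP27A (log2 fold change -1.20, limma adjusted p = 0.0259). Under median-of-ratios scaling *Otud1* and *Uchl1* had -1.26 and -0.89. The list then had 2 lower and 1 higher, against 6.03% and 5.25% of all tested genes, and a median of -0.015.

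Among the transcriptional regulators known to act upstream of the ligases, 3 of 15 tested genes were lower and none higher. Over all tested genes the shares were 23.3% and 1.34%. The paired fit called 9 lower, against 48.4% of all tested genes. Median-of-ratios scaling called 1 lower and 1 higher, against 6.03% and 5.25%. *Myog*, the myogenic factor that activates *Fbxo32* and *Trim63* in denervated muscle, had 34.4, 22.0 and 53.1 TPM with LrpprcWT and 9.20, 3.51 and 6.16 TPM with LrpprcP27A. The groups were far apart, with a log2 fold change of -2.35 (limma, SE 0.35, adjusted p = 0.0116), and -2.01 after median-of-ratios scaling. *Foxo6* was lower, at -0.75 (limma adjusted p = 0.0199), and at -0.41 after median-of-ratios scaling (limma adjusted p = 0.0811). *Foxo1*, *Foxo3* and *Foxo4* had log2 fold changes of -0.39, -0.24 and 0.28 and were not called (limma adjusted p = 0.226, 0.270 and 0.0649), while *Klf15* and *Nr3c1*, the glucocorticoid receptor, had 0.11 and -0.37 (limma adjusted p = 0.549 and 0.0993). Of these 5, the paired fit called *Foxo1* and *Nr3c1* lower (limma adjusted p = 0.0213 and 0.0394), and median-of-ratios scaling called *Foxo4* higher at 0.65 (limma adjusted p = 0.0310), with *Foxo1* at -0.066 and *Nr3c1* at -0.013. These mRNA levels do not measure the activity of the factors.

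Among the mRNAs of 18 known substrates of the ligases, 3 were lower and none higher, against 23.3% and 1.34% of all tested genes. These mRNA levels do not measure the breakdown of the proteins. *Mylpf*, the regulatory light chain of fast myosin, had 20715, 19709 and 22904 TPM with LrpprcWT and 14006, 15080 and 12983 TPM with LrpprcP27A (log2 fold change -0.59, limma adjusted p = 0.0168). *Myh2*, the myosin heavy chain of type 2a fibres, had 376.8, 262.5 and 313.0 TPM with LrpprcWT and 130.7, 98.1 and 213.4 TPM with LrpprcP27A (log2 fold change -1.16, limma adjusted p = 0.0236). The third was *Myl1*, at -0.37 (limma adjusted p = 0.0410). With median-of-ratios scaling none of them was called, *Mylpf* being at -0.21, *Myh2* at -0.79 and *Myl1* at 0.0017 (limma adjusted p = 0.360, 0.0768 and 0.995). The substrates of Fbxo32 and Fbxo40, *Eif3f*, *Myod1* and *Irs1*, had -0.089, -0.66 and -0.18 (limma adjusted p = 0.491, 0.0540 and 0.534). When paired, *Myod1* was called lower (limma adjusted p = 0.000749), and with median-of-ratios scaling it was at -0.30 (limma adjusted p = 0.388). In the paired fit 9 of the 18 were lower and 1, *Myh4*, was higher, against 48.4% and 2.69% of all tested genes.

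**Figure D4:**
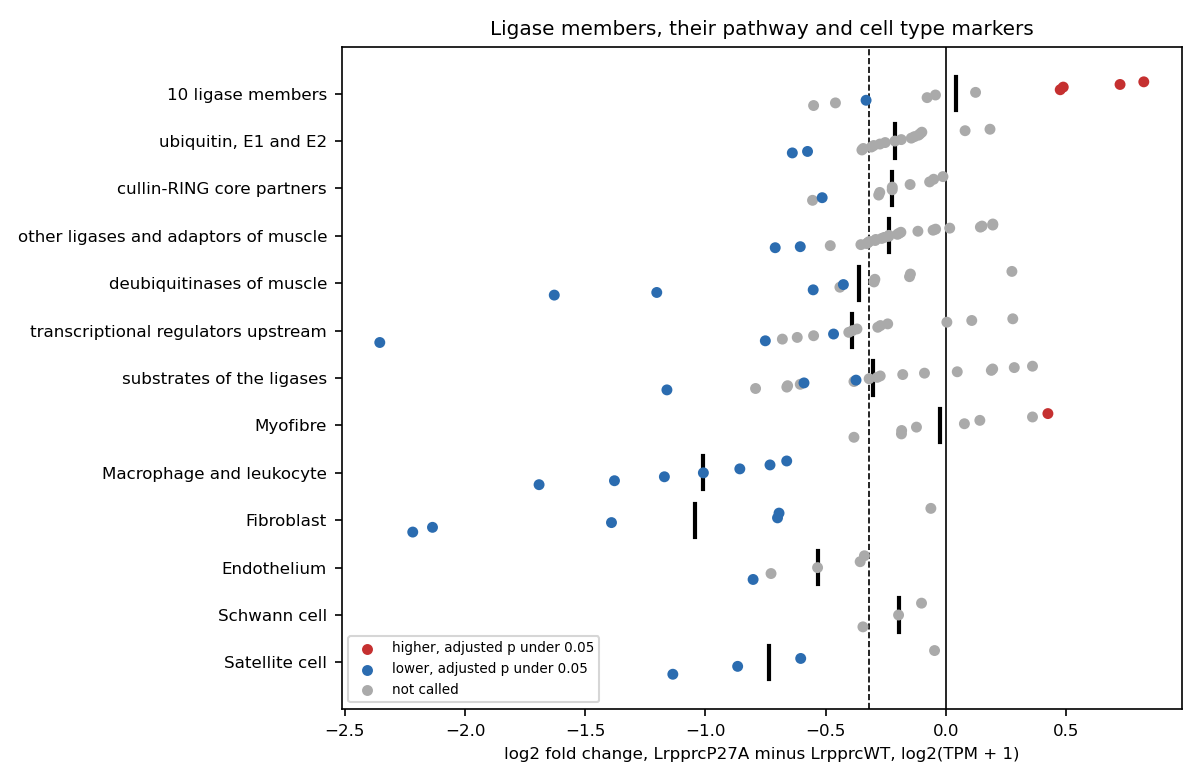
Log2 fold change (horizontal axis, LrpprcP27A minus LrpprcWT, log2(TPM + 1)) of each tested gene in the 10 ligase genes, 6 pathway lists and 6 cell type marker lists; red and blue mark genes called higher or lower at adjusted p under 0.05, black bars the list medians and the dashed line the median of all tested genes, -0.32. The 4 red points of the ligase genes stand alone among the pathway lists, and the other red point is the myofibre marker Actn3.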

How the data were processed

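RNA from 6 TA muscles was sequenced with paired reads of 100 bp by a kit that does not keep strand. Alignment of the quality-filtered reads to GRCm39 was done by the authors with CLC Genomics Workbench, and the deposited values are TPM per gene, which keep no depth. Genes with a mean of at least 1 TPM (11611 of 41709) were compared on log2(TPM + 1) with limma 3.58.1 (trend) in R 4.3.3, unpaired, with Benjamini-Hochberg adjustment over all of them and calls at adjusted p under 0.05. The study compared genes with Kruskal-Wallis and Dunn's tests and took those at p under 0.05 with a fold change cut. For its plotted genes, with *Fbxo32* among the higher ones, it used an unpaired t test. Kruskal-Wallis has a smallest unadjusted p of 0.0495 with 3 against 3. No gene can then pass the adjusted threshold used here unless nearly all separate, and the 0 calls it gave here say nothing about the genes. Fold changes on this scale understate changes of low genes. The fit was tested on simulated data with independent noise for each gene and as many genes raised as lowered. The simulation did not cover the general shift to lower values seen here.

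Muscles with the same library number in both groups are renamed replicates 1 to 3. The study placed the plasmids in contralateral muscles, and the replicate block treats same-numbered muscles as pairs, although the labels do not name the mouse. Same-numbered muscles deviated together from their group means, with correlations over genes of 0.363, 0.528 and 0.356. Correlations between muscles of different numbers were not computed, so these values cannot show the pairing. The members, lists and tests were chosen with earlier results of these data known. All members were named. In each list the 2 called genes of largest log2 fold change (or the 2 of smallest p) were named, and *Cul1*, *Cul5*, *Foxo1*, *Foxo3*, *Foxo4*, *Klf15*, *Nr3c1*, *Eif3f*, *Myod1*, *Irs1*, *Myl1*, *Myh4*, *Actn3*, *Cd163* and *S100b* were added after their values were seen. Gene positions and promoters came from GENCODE on GRCm39.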

Additional observations from a re-analysis of the deposited data

How the results depend on the processing

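The 4 higher members (*Asb2* 0.82, *Fbxo32* 0.72, *Fbxo31* 0.49, *Trim54* 0.48 on the log2 scale) and *Trim55* (-0.33) kept these values but lost their calls without a filter on low genes (0 higher and 0 lower members, adjusted p from 0.0514 to 0.0660, with 4 higher and 2 lower at an unadjusted p under 0.05), which tests more genes. Kruskal-Wallis gave 0 and 0 (5 and 2 unadjusted), which the design fixed: the 5937 genes with separate groups all had its smallest p, 0.0969 adjusted. The lower count of 1 became 0 for limma without trend (*Trim55* -0.33, adjusted p = 0.0624), nuclear protein-coding rescaling (-0.14), quantile normalization (-0.080), median-of-ratios scaling with or without the replicate block (0.036) and scaling over 8 myofibre markers (-0.35), the last chosen after seeing the data. The replicate block gave 3 lower members, adding *Fbxo30* (-0.55) and *Nedd4* (-0.46), and 3 with the myofibre scaling as well (-0.57 and -0.48). Added to the scaling as deposited, the block changed no other member's call. Added to the myofibre scaling it also returned the *Trim55* call (adjusted p = 0.0187). *Trim63* turned to 0.11 (nuclear), 0.30 (median-of-ratios, with or without the block) and 0.17 (quantile), and *Traf6* to 0.13, 0.28 and 0.35, with *Traf6* called at 0.28 once the block was added to median-of-ratios (adjusted p = 0.0395, from 0.0823). *Fbxo40* passed at 0.50 (median-of-ratios, with or without the block) and 0.36 (quantile). The cause of these changes was not tested.

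Over all tested genes, 156 were higher and 2705 lower. The counts were 9 and 42 without a filter, 0 and 0 by Kruskal-Wallis (407 and 5530 unadjusted), 312 and 5619 with the replicate block, 609 and 700 under median-of-ratios, 493 and 518 under quantile normalization, and 298 and 5948 with the block and myofibre scaling. They were 1561 and 1839 for the block with median-of-ratios, 116 and 1560 with a mean of at least 5 TPM, 222 and 634 with nuclear rescaling, and 105 and 1339 with myofibre scaling. Leaving out 1 library gave 0 to 4 higher and 0 to 3 lower members, and 3 to 304 higher and 15 to 6913 lower genes. The log2 fold changes then ranged from 0.61 to 0.86 for *Fbxo32*, 0.39 to 0.53 for *Trim54*, 0.42 to 0.56 for *Fbxo31*, 0.74 to 0.92 for *Asb2*, -0.37 to -0.30 for *Trim55*, -0.76 to -0.33 for *Fbxo30*, -0.62 to -0.34 for *Nedd4*, -0.29 to 0.11 for *Trim63* and -0.10 to 0.015 for *Traf6*. *Trim63* was at 0.014 without the LrpprcWT library of replicate 3. TPM keep no depth, so counting error is unknown.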
